A study of Mus musculus with 27 samples.

Results

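The genes described here are 9 small leucine-rich proteoglycans, *Aspn*, *Ogn*, *Omd*, *Ecm2*, *Dcn*, *Lum*, *Bgn*, *Fmod* and *Prelp*, of 48795 genes listed in each file. They were matched by gene symbol and chosen by family. The family was picked because of *Aspn*, selected on its fold change between the Sertoli-like cells and the cells they were made from, one of the largest rises of that step. All values of that step are therefore given as a description, with no test. The members did not all rise at the same step. *Bgn*, the most abundant member in every group, rose in the early mesoderm. *Fmod* and *Prelp* rose from there to the intermediate mesoderm condition without retinoic acid. *Dcn*, *Lum*, *Fmod* and *Ogn* were higher, and *Prelp* lower, in the condition with retinoic acid than in that without it. The calls of *Ogn* and *Prelp* met the read minimum only through the Sertoli-like cells. *Aspn* and *Ecm2* stayed at a few reads until the Sertoli-like cells, where all 9 members had their highest mean level.

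Bulk RNA-seq covered 27 libraries of mouse cells in 9 groups of 3, all grown from 1 XY embryonic stem cell clone (F1 of C57BL/6 and CBA, clone 7) that carried the Tesco-CFP reporter and R26-rtTA. ESC were stem cells kept in 2i/LIF. EpiSC had spent 60 h with Activin A (20 ng/ml) and bFGF (12 ng/ml), and M, the early mesoderm, a further 36 h with bFGF (20 ng/ml), BMP4 (10 ng/ml) and LY294002 (10 µM), a PI3-kinase inhibitor. The 5 intermediate mesoderm conditions shared bFGF at 5 ng/ml with BMP4 at 20 ng/ml. IM1 held nothing else, IM3 added retinoic acid (RA, 100 nM), IM2 added RA and Activin A (10 ng/ml), IM4 added RA and the GSK3 inhibitor CHIR99021 (0.3 µM), and IM5 added all 3 agents. The induced embryonic Sertoli-like cells (iSLC) were IM3 cells infected with doxycycline-inducible *Nr5a1* and *Dmrt1* lentiviruses, moved to a Sertoli cell medium and sorted for CFP, which the TESCO enhancer of *Sox9* drives. Against IM3, the transgenes, the medium, the added time and the sort cannot be told apart. The study calls the libraries of a group biological replicates. Whether they came from separate cultures or differentiations is not given in the sources used here, so p-values measure the spread between these samples.

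Small leucine-rich proteoglycans are secreted matrix proteins built from leucine-rich repeats, whose curved surface binds collagen fibrils and sets how they grow and pack. Several also bind TGF-β and other growth factors, and many carry chondroitin, dermatan or keratan sulfate chains. They are best known from tendon, bone, cartilage, cornea and other connective tissue, and in the testis decorin is known from the wall around the seminiferous tubules. By sequence, *Dcn* (decorin), *Bgn* (biglycan) and *Aspn* (asporin) form class I, *Fmod* (fibromodulin), *Lum* (lumican), *Prelp* and *Omd* (osteomodulin) belong to class II and *Ogn* (osteoglycin) to class III, while *Ecm2* is a related matrix gene.

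Most members sit in clusters. On mouse chromosome 13 (GRCm38, GENCODE M21 gene models), *Ecm2* (chr13:49504810-49532789), *Aspn* (chr13:49544443-49567565), *Omd* (chr13:49582462-49592822) and *Ogn* (chr13:49608046-49624501) follow each other on the plus strand with gaps of 11.7, 14.9 and 15.2 kb. *Dcn* (chr10:97479609-97518143) and *Lum* (chr10:97565128-97572703) are plus-strand neighbours on chromosome 10, 47.0 kb apart. *Prelp* (chr1:133910304-133921414, minus strand) and *Fmod* (chr1:134037254-134048277, plus strand) are on chromosome 1, and *Bgn* (chrX:73483602-73495933, plus strand) is alone on the X chromosome. All 4 genes on chromosome 13 lie inside the span of *Cenpp*, a centromere protein gene on the opposite strand, whose exons cover 0.2974% of the exon bases of *Aspn* and 0% of those of the other members there. *Gm15851* on the opposite strand covers 9.682% of the *Prelp* exons. Whether strand was used in counting is not stated, so reads in these stretches cannot be assigned to a strand.

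The bases just before the gene starts are shown for the chromosome 13 cluster, because its 4 neighbours reached very different levels, and for *Bgn*, the member with the most RNA. RefSeq promoters (GRCm38.p6, 250 bases before to 50 after the start) were found for 7 of the 9 members, not for *Dcn* and *Lum*. The 250 bases before each start are printed 5′ to 3′ on the gene's strand. Capitals mark the TATA box letters TATAAA, the GC box letters GGGCGG and the E-box letters CAGCTG, each searched on both strands, where the opposite-strand form of the TATA box letters reads TTTATA and that of the GC box letters reads CCGCCC.
*Ecm2* (chr13:49504560-49504809): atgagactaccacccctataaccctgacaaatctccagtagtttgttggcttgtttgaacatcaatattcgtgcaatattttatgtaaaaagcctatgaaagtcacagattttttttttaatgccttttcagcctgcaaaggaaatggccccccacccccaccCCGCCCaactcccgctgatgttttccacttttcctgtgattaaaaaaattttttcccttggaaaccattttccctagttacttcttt
*Aspn* (chr13:49544193-49544442): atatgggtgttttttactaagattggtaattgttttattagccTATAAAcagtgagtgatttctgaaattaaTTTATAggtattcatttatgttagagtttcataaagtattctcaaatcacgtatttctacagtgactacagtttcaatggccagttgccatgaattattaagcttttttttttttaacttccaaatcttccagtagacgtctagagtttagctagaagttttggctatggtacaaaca
*Omd* (chr13:49582212-49582461): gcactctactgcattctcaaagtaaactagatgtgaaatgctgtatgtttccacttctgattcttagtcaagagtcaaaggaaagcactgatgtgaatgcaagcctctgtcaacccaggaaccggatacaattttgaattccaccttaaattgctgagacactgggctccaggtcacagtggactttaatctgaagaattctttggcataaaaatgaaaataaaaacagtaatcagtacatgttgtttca
*Ogn* (chr13:49607765-49608014): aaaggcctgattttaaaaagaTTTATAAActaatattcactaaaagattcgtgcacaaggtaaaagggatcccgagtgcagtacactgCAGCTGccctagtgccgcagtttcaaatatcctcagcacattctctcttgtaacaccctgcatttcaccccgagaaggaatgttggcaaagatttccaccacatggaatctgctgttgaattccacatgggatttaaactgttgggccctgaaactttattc
*Bgn* (chrX:73483351-73483600): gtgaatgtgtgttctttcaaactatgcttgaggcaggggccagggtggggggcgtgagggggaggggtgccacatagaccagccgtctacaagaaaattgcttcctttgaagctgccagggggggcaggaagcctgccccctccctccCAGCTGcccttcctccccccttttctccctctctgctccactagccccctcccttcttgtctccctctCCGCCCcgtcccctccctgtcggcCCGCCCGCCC
The *Aspn* promoter was among the most AT-rich, with 31% G and C over 300 bases, and 1.28% of the 32851 promoters in the RefSeq table were lower. It held TATAAA on its own strand 207 bases before the start and on the other strand 178 bases before it, a motif found in 13.6% of all promoters. *Omd* (37.7%), *Ecm2* (41%) and *Ogn* (42.3%) were also below the median G and C of all promoters, 52.7%. *Ogn* held TATAAA on both strands in 1 overlapping stretch and CAGCTG 162 bases before its start. *Bgn* was the most GC-rich at 63.7%, with GGGCGG 3 times on the opposite strand (35.7% of all promoters hold it) and CAGCTG (16.3%). CAAGGTCA, the core letters bound by NR5A1, stood in 1.56% of all promoters and in 0 of these 7. Such matches describe the letters only.

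Expected counts summed to 35923040 to 84876603 per library. Of the 9 members, 8 were kept among the 20839 genes tested. *Omd* was too low, and *Aspn* was kept only through iSLC. *Ecm2* had at most 19 reads in any library outside iSLC. A gene was taken as differentially expressed (DE) where edgeR's quasi-likelihood test gave a Benjamini-Hochberg adjusted p not above 0.01, the fold was 2 or more, and its normalized reads averaged 100 or more both over the 27 libraries and in the higher of the groups set side by side. *Ogn* (mean of 832 normalized reads, 52.7 without iSLC) and *Prelp* (114 and 19.0) met the minimum over all libraries only through iSLC, so their calls in the comparisons of other groups rest on it. Without the iSLC libraries these 2 genes were not callable. The median log2 fold change of all genes tested was 0.0 between the IM conditions and in iSLC against IM3. The induced factors were found where the labels place them, with a mean of 213 TPM of *Dmrt1* and 93.8 TPM of *Nr5a1* in iSLC against 0.45 and 0.09 TPM in IM3, transgene reads included. Of the Sertoli cell markers, *Gata4* (161 TPM in iSLC, 340 in IM3), *Wt1* (116 and 149 TPM) and *Sox9* (24.8 and 40.0 TPM) were present in iSLC at lower means than in IM3. None of them was DE lower in the edgeR fit, which used counts, although the *Gata4* TPM means are more than 2-fold apart. *Cst9* also had a lower mean (1.5 and 4.41 TPM). *Amh*, the hormone that marks fetal Sertoli cells, was at 0.56 TPM in iSLC and 0.44 TPM in IM3, and *Ptgds* at 0.493 and 0.397 TPM. *Cldn11* (7.05 and 0.483 TPM), *Inha* (14.3 and 3.26 TPM) and *Dhh* (1.86 and 0.7 TPM) had higher means in iSLC. Red blood cell genes split the libraries. The sum of 6 of them was 4.02 to 27.6 CPM over 12 libraries (those of IM3, IM4, M and ESC) and 0.375 to 1.38 CPM over the other 15 (iSLC, IM1, IM2, IM5 and EpiSC). IM3 with M, IM2 with IM1, IM4 with IM3 and IM5 with IM2 are comparisons within 1 side of this split. The other comparisons of groups made here cross it, and its part in their results was not tested.

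*Bgn* was the most abundant member in every group. Its deposited level per length (TPM, a read abundance divided by transcript length and scaled to the same sum in each library) had means of 1.85 in ESC, 2.55 in EpiSC, 16.2 in M, 36.7 in IM1, 92.4 in IM2, 44.1 in IM3, 32.4 in IM4, 58.6 in IM5 and 1030 in iSLC. With the groups ranked by mean, neighbours in rank did not overlap between libraries except IM1 and IM4. *Dcn* was next from IM2 to IM5 and in iSLC, with means of 14.4 to 17.4 TPM in IM2 to IM5 and 208 TPM in iSLC. *Lum* reached means of 6.38 to 11.5 TPM in IM2 to IM5 and stood at 85.2, 103 and 96.7 TPM in the iSLC libraries. *Fmod* (2.72 to 6.45 TPM in IM2 to IM5, 79.6 TPM in iSLC) had lower means than *Lum* in IM2, IM4 and IM5 and about the same in IM3. *Ogn* (0.523 to 2.16 TPM, 87.4 TPM in iSLC) was lower than *Lum* in IM2 to IM5. The sum over the 9 genes was 2.52 ± 0.423 TPM (SD, n = 3) in ESC, 16.9 ± 2.05 in M, 40.8 ± 2.84 in IM1, 76.3 ± 1.54 in IM3 and 1561 ± 53.8 in iSLC. *Bgn* made up 95.8% of that sum in M, 90.1% in IM1, 57.8% in IM3, 48.4% in IM4 and 65.9% in iSLC, and the remainder in IM3 was mostly *Dcn* (22.3%), *Fmod* (8.44%) and *Lum* (8.35%).

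**Figure D1:**
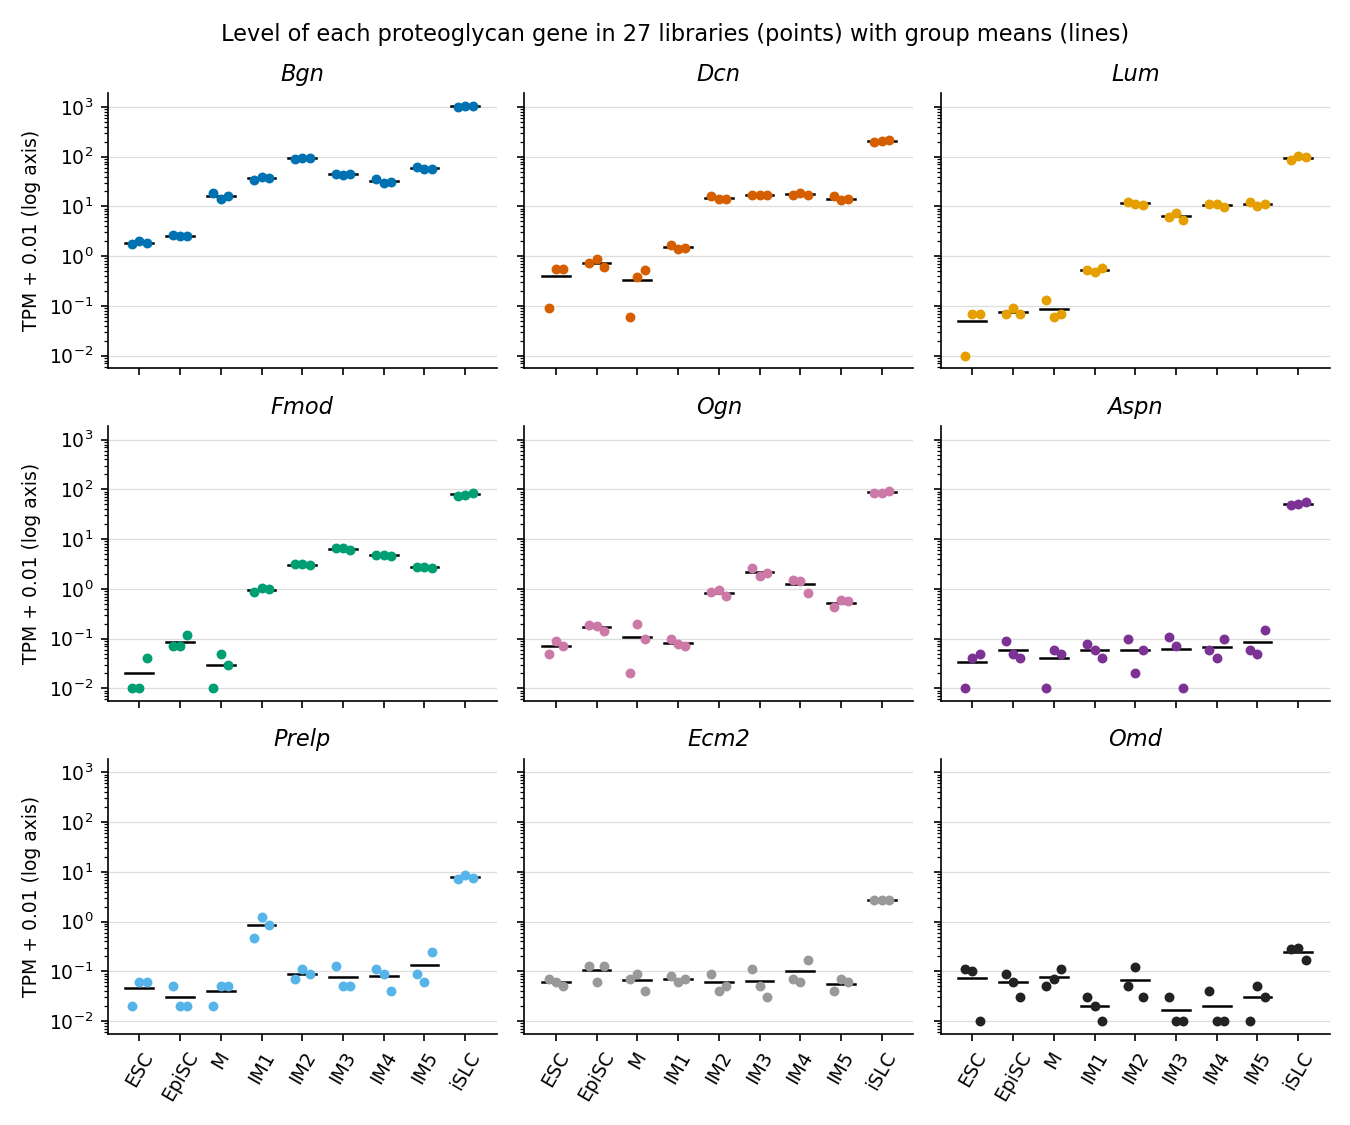
TPM of the 9 genes (TPM + 0.01, log axis) in the 9 groups on the x axis. Points are single libraries and lines are means of 3. All members are highest in iSLC; *Bgn* is higher in M than in the stages before, *Dcn*, *Lum*, *Fmod* and *Ogn* are higher in IM2 to IM5 than in IM1, and *Aspn* stays at or under 0.14 TPM outside iSLC.

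**Figure D2:**
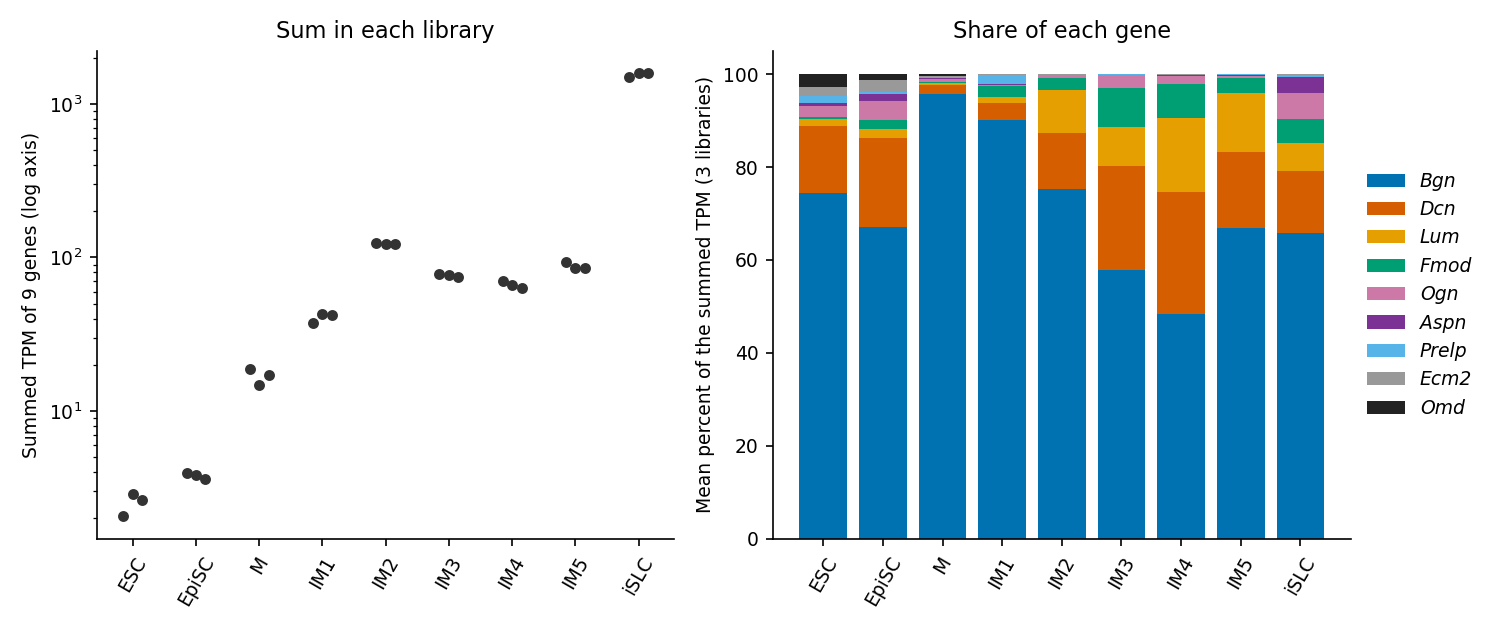
Left, the summed TPM of the 9 genes in each library (log axis); right, the mean percent of that sum held by each gene in each group (3 libraries). The sum goes from 2.52 TPM in ESC to 1561 TPM in iSLC, and the share of *Bgn* is highest in M (95.8%) and lowest in IM4 (48.4%).

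Between ESC and EpiSC, 0 of the 8 members tested were DE, where 8.07% of all genes were. Only *Bgn* met the read minimum in ESC, EpiSC or M. The other members had at most 60.8 normalized reads in any of these libraries (*Dcn* in EpiSC replicate 2). They could not be called between these groups whatever their fold, so the counts of DE members here rest on *Bgn* alone. By unadjusted p in edgeR, 5 of the 8 members and 13169 of the genes tested were under 0.05, and DESeq2 also called 0 members. *Bgn* stood at 1.76, 1.97 and 1.82 TPM in ESC and 2.61, 2.49 and 2.55 TPM in EpiSC. The libraries did not overlap (log2 fold change 0.55 ± 0.11 SE, edgeR adjusted p = 0.000101), but the fold of 1.46 was under the minimum. In M, *Bgn* was at 18.5, 13.9 and 16.3 TPM, all above the EpiSC libraries. It was the 1 member DE between M and EpiSC (6.06-fold higher, log2 2.60 ± 0.09, edgeR adjusted p = 1.02e-19), against 14.5% of all genes DE in either direction. The other members were at or under 0.88 TPM in these 3 stages.

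From M to the intermediate mesoderm, 3 members rose in IM1 (*Bgn*, *Fmod* and *Prelp*) and 5 rose in IM3 (*Bgn*, *Dcn*, *Lum*, *Fmod* and *Ogn*), and 0 fell in either. Without the iSLC libraries, *Prelp* was lost from the first count (2 members) and *Ogn* from the second (4). Of all genes, 15.7% were DE in IM1 against M (9.72% higher) and 14.9% in IM3 against M (9.26% higher). Both comparisons use the same M libraries. *Fmod*, which binds collagen fibrils and is best known from tendon, went from 0, 4 and 2 reads in M to 103, 153 and 129 reads in IM1 and 624, 443 and 425 reads in IM3. Over summed counts scaled to library size, that is 46.4-fold in IM1 against M (95% counting interval 21.1 to 127) and 292-fold in IM3 against M (134 to 798). Counting intervals cover counting error only. The fitted log2 values for *Fmod* were 5.46 ± 0.57 in IM1 (edgeR adjusted p = 5.86e-15) and 8.11 ± 0.57 in IM3 (1.32e-21), and became 6.43 and 9.09 without M replicate 2, which held 4 of the 6 reads. *Bgn* rose 2.07-fold in IM1 and 2.37-fold in IM3 (edgeR adjusted p = 3.48e-13 and 1.25e-14). *Dcn*, which binds collagen and TGF-β, was at 0.05, 0.38 and 0.52 TPM in M and rose 46.4-fold in IM3 (log2 5.54 ± 0.35, edgeR adjusted p = 4.09e-17), and *Lum* rose 72.1-fold there (6.17 ± 0.44, 4.92e-18). *Ogn* rose 19.5-fold in IM3 (4.28 ± 0.41, edgeR adjusted p = 8.94e-13; 5.15 without M replicate 2, which held 15 of 24 reads). In IM1 against M, *Dcn* (log2 2.12) and *Lum* (2.67) had edgeR adjusted p of 2.26e-06 and 4.12e-07 but means under 100 normalized reads in both groups. *Fmod* and *Prelp* were close to that minimum in IM1, and without IM1 replicate 2 the count of DE members fell from 3 to 1.

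RA had its question put by IM3 against IM1, where 4 members rose (*Dcn*, *Lum*, *Fmod* and *Ogn*) and *Prelp* fell, 5 of 8 members DE against 6.34% of all genes (2.62% higher, 3.72% lower). Without the iSLC libraries, 3 members were DE, *Dcn*, *Lum* and *Fmod*. *Ogn* and *Prelp* then missed the minimum over all libraries, with log2 differences of 4.73 and -3.70 (edgeR adjusted p = 1.81e-10 and 1.15e-06). *Dcn* was at 1.64, 1.39 and 1.47 TPM in IM1 and 17.3, 16.7 and 17.1 TPM in IM3. *Lum*, a keratan sulfate proteoglycan of the cornea and other tissues, was at 0.52, 0.48 and 0.58 TPM in IM1 and 6.15, 7.55 and 5.44 TPM in IM3. In both genes each IM3 library was well above each IM1 library. *Dcn* rose 10.7-fold (log2 3.41 ± 0.19, edgeR adjusted p = 8.32e-15) and *Lum* 11.4-fold (3.51 ± 0.18, 7.96e-16). *Fmod* went from 0.85, 1.02 and 1.01 TPM to 6.66, 6.56 and 6.12 TPM and rose 6.30-fold (2.65 ± 0.11, edgeR adjusted p = 6.49e-17). *Ogn*, a class III member known from bone and vessel walls, had 9, 9 and 6 reads in IM1 and 193, 100 and 114 in IM3, a ratio of 27.6 (95% counting interval 18.3 to 43.5; fitted log2 4.74 ± 0.41, edgeR adjusted p = 2.63e-13). *Bgn* differed little, at 33.8, 38.3 and 38.1 TPM in IM1 and 44.7, 43.8 and 43.9 TPM in IM3 (log2 0.20 ± 0.07, edgeR adjusted p = 0.0173).

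*Prelp* went the other way. This class II member, known to anchor basement membranes to connective tissue, had 66, 214 and 128 reads in IM1 and 13, 3 and 3 in IM3. The IM1 libraries spread from 0.47 to 1.22 TPM, yet all stood above the 0.04 to 0.12 TPM of IM3. The summed counts were 13.2-fold higher in IM1 (95% counting interval 8.35 to 22.2), and the fitted log2 was -3.68 ± 0.51 (edgeR adjusted p = 2.84e-08), or -4.55 without IM3 replicate 1. Before iSLC, IM1 was the group with the most *Prelp* (0.847 TPM; at or under 0.24 TPM in each library of the other 7 groups). The summed endothelial markers (6 genes) were also highest in IM1 of the IM conditions, 365 to 393 CPM against 178 to 199 CPM in IM3. Of the 6, 4 were DE lower in IM3 than in IM1 (3.72% of all genes). *Tek* (17.8 TPM in IM1, 26.8 TPM in IM3) and *Emcn* (1.37 and 2.33 TPM) had higher means in IM3. In iSLC, where *Prelp* was highest, the sum was 26.2 to 27.6 CPM. The part of these markers in the *Prelp* result was not tested. In such bulk samples, fewer cells of a type and less RNA per cell cannot be told apart.

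IM2, with RA and Activin A, lies on the same side of the red blood cell split as IM1. Against IM1, 4 members rose and 1 fell in IM2 (3.51% of all genes were DE, 1.94% higher and 1.56% lower), and the 4 that rose were DE without the iSLC libraries too. The 1 that fell, *Prelp*, then missed the minimum over all libraries and was not DE. *Lum* was 20.9-fold higher (log2 4.39), *Dcn* 9.43-fold (3.24), *Fmod* 3.04-fold (1.60) and *Bgn* 2.42-fold (1.28), with edgeR adjusted p of 1.83e-17, 5.28e-14, 8.32e-12 and 3.14e-14. *Prelp* was 11.3-fold lower (log2 -3.50, edgeR adjusted p = 2.91e-08). *Ogn* had 70, 74 and 62 reads in IM2, a log2 of 3.39 (edgeR adjusted p = 6.70e-09) with fewer than 100 normalized reads in both groups. The comparison shares the IM1 libraries with that of IM3.

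With Activin A, members differed in both directions. IM2 against IM3 and IM5 against IM4 both cross the red blood cell split, and its part in these differences was not tested. In IM2 against IM3, *Bgn* rose, *Fmod* and *Ogn* fell (3 of 8 members; 3.8% of all genes were DE, 2.46% higher and 1.34% lower). Without the iSLC libraries 2 were DE, *Bgn* and *Fmod*. *Bgn* was at 91.4, 92.2 and 93.6 TPM in IM2, above the 43.8 to 44.7 TPM of IM3 (2.12-fold, log2 1.08 ± 0.07, edgeR adjusted p = 1.14e-12). *Fmod* was at 3.10, 3.11 and 2.96 TPM in IM2 and 6.12 to 6.66 TPM in IM3 (2.07-fold lower, -1.05 ± 0.10, edgeR adjusted p = 1.50e-09). *Ogn* was at 0.85, 0.94 and 0.72 TPM in IM2 and 1.85 to 2.57 TPM in IM3 (2.56-fold lower, -1.35 ± 0.20, edgeR adjusted p = 2.86e-06). None of these libraries overlapped between the groups. *Lum* was at 12.2, 11.4 and 10.7 TPM in IM2, above each IM3 library, but its fold of 1.84 was under the minimum (log2 0.88 ± 0.11, edgeR adjusted p = 6.30e-07). For *Dcn* the log2 difference was -0.18 (95% interval -0.46 to 0.11, edgeR adjusted p = 0.336).

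The same addition on top of CHIR99021, IM5 against IM4, left 1 member DE, *Ogn* (4.09% of all genes were DE; 1.46% lower). *Ogn* was at 1.48, 1.41 and 0.80 TPM in IM4 and 0.42, 0.60 and 0.55 TPM in IM5, so that the lowest IM4 library was close to IM5 (2.29-fold lower, log2 -1.19 ± 0.22, edgeR adjusted p = 6.79e-05). Its IM4 mean was barely over 100 normalized reads, and the call was lost without the iSLC libraries and without IM4 replicate 1, IM4 replicate 2 or IM5 replicate 1. *Bgn* was at 36.0, 30.3 and 30.8 TPM in IM4 and 61.6, 57.9 and 56.2 TPM in IM5, and *Fmod* at 4.68 to 4.83 TPM in IM4 and 2.67 to 2.80 TPM in IM5. These groups did not overlap either, and the log2 differences of 0.93 ± 0.07 for *Bgn* (edgeR adjusted p = 2.14e-11) and -0.76 ± 0.10 for *Fmod* (3.94e-07) were under the fold minimum. *Dcn* (log2 -0.21, 95% interval -0.49 to 0.07) and *Lum* (0.12, -0.10 to 0.34) had intervals that include 0.

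**Figure D3:**
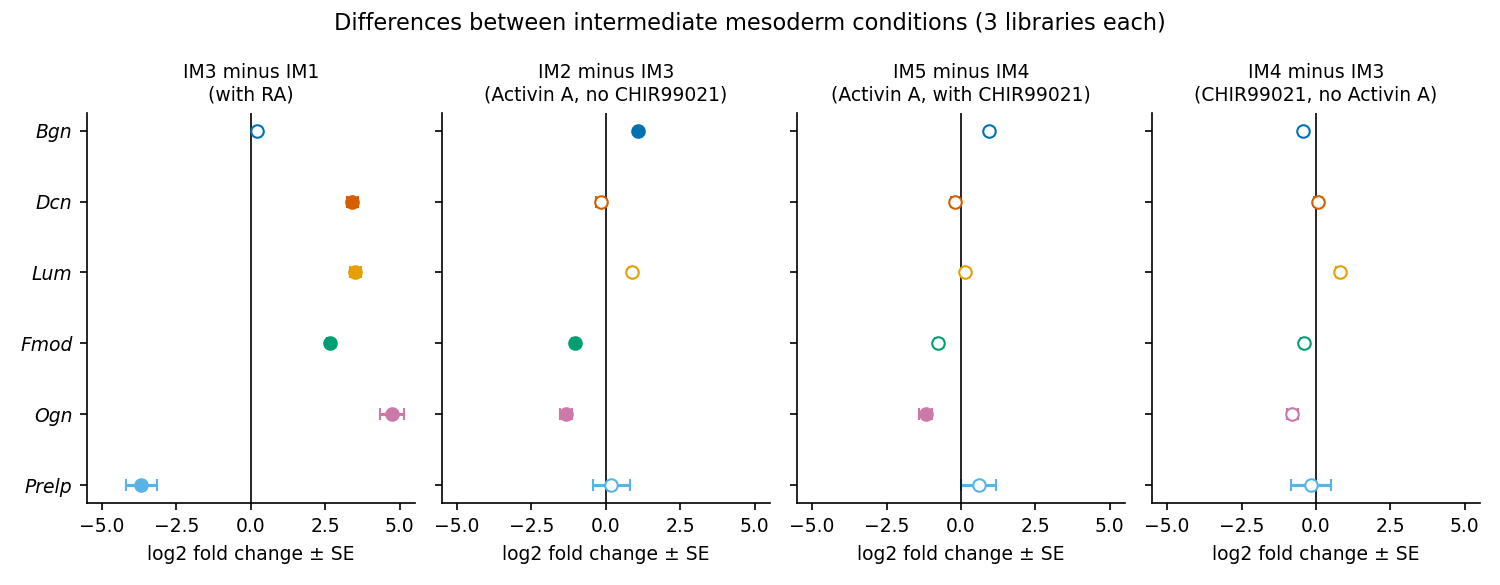
Log2 fold change ± SE of 6 members in 4 comparisons of intermediate mesoderm conditions (3 libraries per group; edgeR, all 27 libraries in 1 fit). Filled points are DE and open points are not. With RA, *Dcn*, *Lum*, *Fmod* and *Ogn* lie to the right and *Prelp* to the left; with Activin A, *Bgn* lies to the right and *Fmod* and *Ogn* to the left.

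CHIR99021 gave 0 DE members, in IM4 against IM3 (0.101% of all genes were DE) and in IM5 against IM2 (0.235%). At unadjusted p under 0.05, edgeR had 4 members and 2517 genes in the first and 2 members and 4586 genes in the second, and DESeq2 called 0 members in both. *Lum* was at 11.3, 11.1 and 9.90 TPM in IM4, above the 5.44 to 7.55 TPM of IM3 (1.73-fold, log2 0.79 ± 0.12, edgeR adjusted p = 0.000147). It was at 12.2, 10.2 and 11.2 TPM in IM5 against 10.7 to 12.2 TPM in IM2, a log2 difference of 0.03 (95% interval -0.19 to 0.25). *Bgn* was lower with CHIR99021 in both settings, by a log2 of -0.42 in IM4 (edgeR adjusted p = 0.000496) and -0.58 in IM5 (1.37e-06), with folds under the minimum. The interaction of Activin A and CHIR99021 left 0 members DE (0.0336% of all genes; 2 members and 2191 genes under an unadjusted p of 0.05, and 0 members by DESeq2). For *Lum* it was -0.76 ± 0.16 (log2, edgeR adjusted p = 0.0173).

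In each iSLC library, every member was above its highest value in any other group. *Aspn* was at 48.4, 51.2 and 56 TPM in iSLC and at or under 0.14 TPM elsewhere, where its 24 libraries held 0 to 11 reads and 13 of them were at or under the floor of 3 reads. Asporin is known to bind collagen and TGF-β. Its summed count of 12501 in iSLC against 10 in IM3 gave a ratio of 887 (95% counting interval 482 to 1850), and against the 14 reads of IM1 a ratio of 1030 (614 to 1880). *Prelp* (ratio 106, interval 67.8 to 177), *Ecm2* (47.0, 28.8 to 82.6) and *Ogn* (40.1, 36.4 to 44.3) came next in iSLC against IM3. The members that were already abundant in IM3 had ratios of 23.6 (*Bgn*), 15.1 (*Lum*), 12.4 (*Dcn*) and 12.4 (*Fmod*). *Omd* had 15, 14 and 8 reads in iSLC and 1, 0 and 0 in IM3, too few for more than a wide interval (ratio 26.2, 4.43 to 1060).

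In the edgeR fit the iSLC minus IM3 log2 differences were 9.76 for *Aspn*, 6.73 for *Prelp*, 5.55 for *Ecm2*, 5.34 for *Ogn*, 4.56 for *Bgn*, 3.92 for *Lum*, 3.64 for *Fmod* and 3.63 for *Dcn*. IM3 replicate 1 held most of the IM3 reads of the rarest members, and without it *Aspn* came to 10.69, *Prelp* to 7.6 and *Ecm2* to 6.43. Of all genes, 10.3% were DE higher in iSLC against IM3 and 19.2% in either direction. Per length, *Aspn* in iSLC stood below *Ogn* (83.7, 85.7 and 92.9 TPM) and far above *Prelp* (7.26, 8.57 and 7.65 TPM), *Ecm2* (2.77, 2.77 and 2.78 TPM) and *Omd* (0.27, 0.29 and 0.16 TPM). The 4 neighbours on chromosome 13 thus ranged from 0.24 to 87.4 TPM in the same cells. *Cenpp*, whose span holds them, was at 10.5 TPM in iSLC and 10.9 TPM in IM3.

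**Figure D4:**
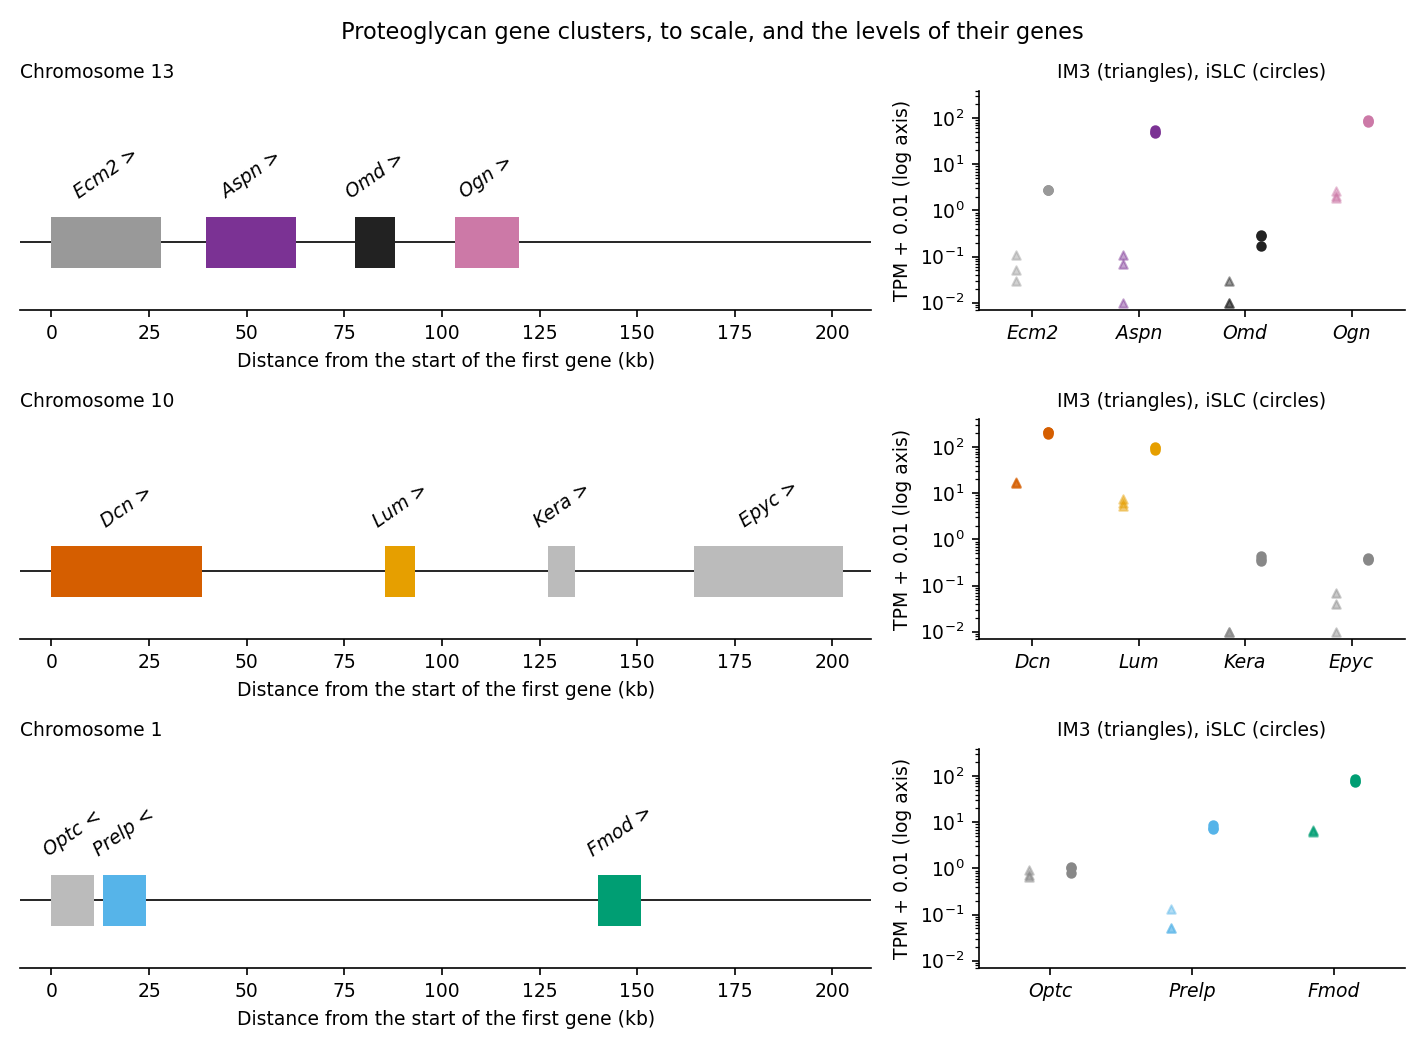
Left, the 3 gene clusters with genes drawn to scale (x axis, kb from the start of the first gene; arrowheads give the strand; grey *Kera*, *Epyc* and *Optc* are not among the 9 members). Right, TPM + 0.01 (log axis) of the same genes in the 3 libraries each of IM3 (triangles) and iSLC (circles). *Aspn* and *Ogn* reach 51.8 and 87.4 TPM in iSLC and *Omd*, between them, 0.24 TPM.

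Summed markers of fibroblasts, tendon and smooth muscle were higher in iSLC than in IM3, and those of cartilage and bone lower. The 11 fibroblast markers summed to 17200 to 17600 CPM in iSLC and 7330 to 8450 CPM in IM3, with *Col1a1*, *Col1a2* and *Thy1* DE higher and *Twist2* lower. The 4 tendon markers summed to 255 to 300 CPM against 15.2 to 17.0 CPM, with 2 DE higher. *Egr1* was at 138 against 6.18 TPM, *Scx* at 68.8 against 6.80 TPM, *Mkx* at 2.79 against 1.57 TPM and *Tnmd* at 1.13 against 0.05 TPM. The 9 cartilage and bone markers, of which 7 were tested, summed to 21.8 to 23.1 CPM against 28.0 to 34.9 CPM, with *Acan* DE higher and *Col2a1*, *Col9a1* and *Alpl* lower. The 7 smooth muscle and peritubular myoid markers summed to 2650 to 2710 CPM against 1230 to 1470 CPM, with *Myh11* and *Actg2* DE higher. The 11 Sertoli cell markers, *Nr5a1* and *Dmrt1* included, summed to 774 to 835 CPM against 628 to 738 CPM, but the 9 without these induced factors to 465 to 489 CPM against 627 to 737 CPM. Besides the induced factors, *Inha* was DE higher. The 7 gonadal interstitial progenitor markers summed to 550 to 574 CPM against 459 to 477 CPM, with *Tcf21* and *Maf* DE higher and *Gli1* lower. Endothelial markers summed to 26.2 to 27.6 CPM in iSLC, below the 178 to 199 CPM of IM3 (5 of 6 DE lower, *Emcn* higher). The part of these cell types in the iSLC levels was not tested.

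Other small leucine-rich proteoglycans behaved differently from one another. *Kera* and *Epyc*, which continue the chromosome 10 cluster after *Lum*, had 20 to 27 and 20 to 23 reads in iSLC and at most 1 and 3 reads in the other libraries, while *Dcn* and *Lum* beside them held 198 to 214 and 85.2 to 103 TPM. *Tsku* was the most abundant of the family outside the 9, at 57.2 TPM in IM3 and 38.1 TPM in iSLC, and was DE higher in IM3 against M (log2 1.45). *Podn* was at 1.55 TPM in IM3 and 2.04 TPM in iSLC, *Optc* at 0.763 and 0.947 TPM, and *Chadl* at 0.933 and 1.27 TPM. *Chad*, *Nyx* and *Podnl1* stayed at or under 0.79 TPM in every library. Of these 9 other genes, only *Tsku* and *Podn* met the count minimum over all libraries, so the rest could not be called DE whatever their fold. *Tsku* was DE in IM3 against M and *Podn* was not, and neither was DE in IM3 against IM1 or in iSLC against IM3. So few callable genes cannot show whether this list differs from all genes.

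The collagens these proteins bind rose in IM1 and in IM3 against M and were higher again in iSLC. Of 13 fibrillar and associated collagens, 11 rose in IM3 against M (median log2 4.16). Without RA, in IM1 against M, 12 rose (median log2 3.24). Of all genes, 9.26% were DE higher in IM3 against M and 9.72% in IM1 against M. In IM3 against IM1, *Col3a1* (log2 1.11), *Col11a1* (1.18) and *Col14a1* (2.63) rose and *Col5a1* (-1.03) and *Col6a3* (-1.85) fell (median log2 -0.14 over the list). There 2.62% of all genes were DE higher and 3.72% lower. *Col1a1* had means of 30.5 TPM in M, 751 in IM1, 728 in IM3 and 2460 in iSLC. *Col3a1* had 1.07, 94.1, 230 and 2230 TPM, and *Col5a1* 28.7, 242, 129 and 610 TPM. In iSLC against IM3, 12 collagens were DE higher and *Col2a1* lower (median log2 3.40), where 10.3% of all genes were DE higher. This and the iSLC counts of the other lists are descriptions.

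The sugar chains are built on the core proteins by enzymes of the secretory pathway. The 6 genes for the linker that joins a chain to its protein stayed under the fold minimum, with log2 differences of -0.68 (*Xylt2*) to 0.89 (*Xylt1*) in IM3 against M and -0.43 (*B3gat3*) to 0.19 (*Fam20b*) in IM3 against IM1. *Xylt2*, which adds the first sugar, was DE higher in iSLC (log2 1.36). The most abundant of them, *B3gat3*, *B4galt7* and *Fam20b*, were at 39.1, 28.4 and 25.6 TPM in IM3 and 43.9, 28.3 and 35.6 TPM in iSLC. Of 16 chondroitin and dermatan sulfate genes, 5 rose and *Chst7* fell in IM3 against M, *Chst7* and *Ust* fell in IM3 against IM1, and *Chsy3*, *Chst3* and *Ust* were higher in iSLC. In IM1 against M 5 rose as well. Of all genes, 9.26% were DE higher in IM3 against M and 10.3% in iSLC against IM3. In IM3 against IM1, 2.62% were DE higher and 3.72% lower. *Chsy1*, a chain polymerase, was at 53.3 TPM in IM3 and 45.8 TPM in iSLC, *Chpf* at 42.4 and 77.4 TPM and *Dse*, a dermatan sulfate epimerase, at 29.9 and 40.8 TPM. Of 7 keratan sulfate genes, *Chst1* rose and *Chst2* and *Fut8* fell in IM3 against IM1, where *Fut8* went from 90.2 to 22.8 TPM (log2 -2.14). In iSLC *B4galt1* was DE higher (log2 1.58) and *B3gnt7* lower (-1.81).

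Of 10 TGF-β ligands, latent binding proteins and receptors, 6 rose in IM3 against M, where 9.26% of all genes were DE higher. In IM1 against M, without RA, 6 rose too (9.72% of all genes). *Tgfb3* alone of the list was DE in IM3 against IM1 (log2 2.90, where 2.62% of all genes were DE higher). In iSLC *Tgfb3*, *Tgfbr2*, *Ltbp2*, *Ltbp3* and *Ltbp4* were higher, with *Ltbp4* at 10.5 TPM in IM3 and 123 TPM in iSLC, while *Tgfb1* (67.8 and 33.6 TPM) and *Tgfbr1* (59.9 and 69.1 TPM) were not DE. Of 18 genes for collagen crosslinking and processing, 10 rose and 2 fell in IM3 against M, and 7 rose and 1 fell in IM1 against M. In IM3 against IM1 *Lox*, the lysyl oxidase, and *Loxl3* rose and *Loxl4* and *Bmp1* fell. In iSLC 11 were higher and 2 lower, and *Pcolce* went from 362 to 911 TPM, *Loxl2* from 111 to 281 TPM and *Plod3* from 106 to 127 TPM, the last not DE. Of 10 proteoglycan-cutting proteases tested, 6 rose in IM3 against M and 8 in IM1 against M. *Adamts1*, *Adamts5* and *Adamts15* rose and *Adamts4* and *Mmp9* fell in IM3 against IM1, and in iSLC 4 were higher and 2 lower (*Mmp14* 37.3 and 446 TPM, *Mmp2* 185 and 743 TPM, *Mmp9* 27.5 and 1.46 TPM in IM3 and iSLC). Of 23 other matrix proteoglycans, 11 were DE higher and 0 lower in iSLC, where 10.3% of all genes were DE higher. *Hspg2*, the perlecan core protein, was at 118 TPM in IM3 and 493 TPM in iSLC. *Vcan* (95.2 and 128 TPM) and *Gpc3* (649 and 606 TPM) were not DE there.

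Over the 27 libraries, the pairwise Pearson correlation of log2 CPM between the 8 members tested ranged from 0.439 to 0.965 with a median of 0.752 (28 pairs). All members share the high iSLC libraries, and over the 24 libraries without iSLC the median was 0.349 (-0.346 to 0.95). *Dcn*, *Lum* and *Fmod* still moved together there (0.934 to 0.95), and so did *Dcn* and *Ogn* (0.911). *Ogn* stood at 0.831 with *Fmod* and 0.82 with *Lum*. *Bgn* stood at 0.846 with *Lum*, 0.813 with *Fmod*, 0.727 with *Dcn* and 0.564 with *Ogn*. *Aspn*, near its floor, was at 0.166 to 0.38 with the others. Of all 20838 other genes, *Col3a1* (r = 0.9856), *Col5a2* and *Adamts5* were nearest to *Fmod*. *Ntrk3* (0.9867), *Sox8* and *Prickle2* were nearest to *Lum*, and *Ntrk3* (0.971), *Fmod* and *Traf5* to *Dcn*. *Bgn* was nearest to *Cplx2* (0.9847), *Cflar* and *Rflnb*. *Sparcl1* (0.9646), *Oaz2* and *1700016F12Rik* were nearest to *Prelp*. Among IM1, IM3 and iSLC, *Sparcl1* had the same order as *Prelp*, with means of 9.64 TPM in IM1, 0.873 TPM in IM3 and 112 TPM in iSLC. *Ogn* was nearest to *Golga7* (0.9637), *Mgll* and *Aldh1a1*, *Aspn* to *Ddost* (0.968), *Cst8* and *Ppt1*, and *Ecm2* to *Mterf4* (0.9535), *Gm15866* and *Cst8*. These values have n = 27 libraries in 9 groups and are descriptions only.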

How the data were processed

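RNA from 27 libraries in 9 groups of 3 was sequenced as paired reads of 75 bases. Use of strand in counting is not given in the sources used here. The authors trimmed reads with Cutadapt 1.9.1, aligned them to GRCm38 with STAR 2.5.2a and ran RSEM 1.3.0. The authors deposited, per gene, an expected count (RSEM's estimate of fragments, not normalized), a TPM and an FPKM value (per length and scaled per library) and an effective length. Replicates were not pooled.

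Expected counts were rounded and tested with edgeR 4.0.16 (R 4.3.3): filterByExpr, TMM factors, glmQLFit and glmQLFTest, 1 coefficient per group over all 27 libraries, Benjamini-Hochberg over 20839 genes. Steps were tested on simulated data. TPM was used for levels and FPKM only as an alternative. Correlations used edgeR's log2 CPM with a prior count of 1 read. Count ratios used summed counts over TMM-scaled library sizes, with an exact binomial 95% interval. GENCODE M21 names matched 48349 of 48795 genes (99.09%).

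Groups and replicate numbers came from the labels. Members and gene lists were chosen with earlier results of these data known. Named are all 9 members, the other family genes above 3 reads, in each further list the 3 genes of highest mean TPM (other genes named in these lists were chosen after their values were seen), the 3 genes nearest to each member, and genes that overlap a member. Alternatives were DESeq2 1.42.0 (size factors or Wald test), an effective-length offset, no low-count filter, no count or fold minimum, another p threshold, only the groups compared, the replicate block and each replicate left out. A GC offset and a fit without iSLC were added after seeing the data. Same-numbered libraries correlated by -0.0911 to 0.12, so the numbers were not taken as pairs. Replicates of a group differed by more than sampling noise (chi-square per degree of freedom 3.46 to 49.1). Proteins were not analysed here.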

Additional observations from a re-analysis of the deposited data

Results flagged for a closer look

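The difference with CHIR99021 in *Lum* was larger without Activin A than with it. *Lum* was 1.73-fold higher in IM4 than in IM3 and 1.02-fold higher in IM5 than in IM2, and the interaction was -0.76 ± 0.16 on the log2 scale (edgeR quasi-likelihood test, adjusted p = 0.0173), which passes 0.05 but not the DE threshold of 0.01. Over 20 alternatives the adjusted p ran from 0.00037 (no low-count filter) to 0.0988 (only the groups compared), and in 6 of them it was over 0.05. It was 0.00176 in DESeq2, 0.0643 with the GC offset and 0.0633 without the iSLC libraries, and with 1 replicate left out it ran from 0.0054 (without IM5 replicate 1) to 0.0668 (without IM3 replicate 1). *Lum* in this interaction thus depends on the setting at either threshold. IM3 was the lowest of the 4 groups, with 5.44 to 7.55 TPM against 9.90 to 12.2 TPM in the 9 libraries of IM2, IM4 and IM5.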

How the results depend on the processing

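Of 808 member values recomputed under the alternatives (57 results), 779 stayed the same, 5 lost and 12 gained significance, 4 changed sign and 8 moved. Staying the same meant keeping the direction and the side of the adjusted p threshold. In iSLC against IM3 it meant a log2 difference within the SE of the main fit, and the 8 that moved shifted by more than that SE. The sign changes were in differences near 0: *Dcn* in IM5 against IM4 became 0.10 with the GC offset, *Dcn* in IM5 against IM2 -0.08 without IM5 replicate 1, and *Lum* in IM5 against IM2 -0.01 without IM2 replicate 3 and -0.08 without IM5 replicate 1 (leaving out 1 replicate in turn gave -0.08 to 0.13 for both genes in IM5 against IM2). Members have few reads before the intermediate mesoderm, which limits those steps. Counts of DE members moved mainly through the count and fold minimums. Without the count minimum there were 1 in EpiSC against ESC, 2 in M against EpiSC and 5 in IM1 against M. Without the fold minimum there were 1 in EpiSC against ESC, 3 in IM5 against IM4, 2 in IM4 against IM3 and 1 in IM5 against IM2. With only the groups compared there were 1 in IM1 against M, 3 in IM3 against IM1 and 0 in IM5 against IM4, and in the 24 libraries without iSLC 3 and 0 in the last 2, where the mean over fewer libraries meets the same count minimum. IM5 against IM4 also had 0 with DESeq2 and with the GC offset, and the cause was not tested. With 1 replicate left out, the count was 1 to 3 in IM1 against M and 0 to 1 in IM5 against IM4. The summed TPM of the family was higher by a log2 of 0.90 in IM3 than in IM1, and by 0.77 in CPM, which does not divide by length. The median pairwise correlation of 0.752 was 0.847 on log2(TPM + 1) and 0.349 without iSLC. With the replicate block, IM3 against IM1 had 5 DE members, IM2 against IM3 3, IM5 against IM4 1 and IM1 against M 3, as without it, and the block changed no other call.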
